A study of Mus musculus with 3 samples.

Results

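The receptors for leukotrienes and prostaglandins were examined in the transcriptome of type 2 innate lymphoid cells (ILC2s), which release type 2 cytokines at mucosal surfaces and carry no rearranged antigen receptor. The members were chosen by gene symbol, as 10 named receptor genes. Of these, 9 were among the 16129 genes of the deposited table. Ptger3, the Gi-coupled prostaglandin E2 receptor, was not listed, so no level is given for it. The cells were sorted from the lungs of mice with a wild-type genotype that had been given IL-33, an epithelial alarmin that activates ILC2s, in vivo. The 3 libraries form 1 group and hold 19883728 to 19976129 estimated reads each. Since libraries of untreated mice or of other cells were not analysed here, all comparisons are between genes within the same libraries and none is of IL-33 with its absence. The labels give neither the age of the mice, nor the dose of IL-33, nor the sorting gates, nor whether different animals gave the 3 libraries, and the SD between libraries may be technical only.

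Leukotrienes and prostaglandins are lipids that cells make from arachidonic acid and release to act on neighbouring cells through G protein-coupled receptors. Receptors that couple to Gs raise cyclic AMP, those that couple to Gi lower it and release beta-gamma subunits that promote migration, and those that couple to Gq open intracellular calcium stores. In ILC2s, cysteinyl leukotrienes are known as activators of cytokine release, prostacyclin and prostaglandin E2 as restraints, and prostaglandin D2 as an attractant that acts through CRTH2. The members were grouped here by their main coupling, which for several of them is not exclusive. Ptger2, Ptger4 and Ptgir were taken as Gs-coupled, Ltb4r1, Ltb4r2, Ptger3 and Ptgdr2 as Gi-coupled, and Cysltr1, Cysltr2 and Ptger1 as Gq-coupled.

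Windows of 250 bases, taken before a transcription start, are shown to set regulatory DNA beside the levels given below. They are for the highest member, Ltb4r1, the highest Gs-coupled member, Ptger4, and the lowest listed member, Ptgdr2. The windows are from RefSeq on GRCm38.p6, written 5′ to 3′ along the gene, with capitals marking matches to the motifs searched. Those of Ltb4r1 and Ptger4 adjoin the span of their gene. The window of Ptgdr2 lies inside the span of that gene, 10924519 to 10942511, and is thus not of the same kind.
Ltb4r1, chr14:55765712-55765961, forward strand: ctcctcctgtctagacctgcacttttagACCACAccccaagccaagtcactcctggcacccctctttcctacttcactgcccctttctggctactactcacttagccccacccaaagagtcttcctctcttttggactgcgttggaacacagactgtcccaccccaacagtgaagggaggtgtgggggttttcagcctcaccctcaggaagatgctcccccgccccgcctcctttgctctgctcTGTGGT
Ptger4, chr15:5244188-5244437, reverse strand: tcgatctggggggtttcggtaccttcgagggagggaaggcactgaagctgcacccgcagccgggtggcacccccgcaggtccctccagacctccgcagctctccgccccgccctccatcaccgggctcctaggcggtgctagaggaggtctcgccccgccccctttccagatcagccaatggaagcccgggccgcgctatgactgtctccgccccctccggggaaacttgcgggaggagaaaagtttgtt
Ptgdr2, chr19:10936910-10937159, forward strand: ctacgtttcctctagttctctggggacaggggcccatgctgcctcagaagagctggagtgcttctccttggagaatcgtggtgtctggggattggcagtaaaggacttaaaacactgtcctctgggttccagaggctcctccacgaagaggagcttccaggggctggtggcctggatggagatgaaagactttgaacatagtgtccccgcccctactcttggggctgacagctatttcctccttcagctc
The motifs searched on both strands were the cyclic AMP response element TGACGTCA and its shorter form TGACG, which the longer one contains, AGATAA for GATA factors, TGTGGT for RUNX factors, CCGGAA for ETS factors and TGANTCA for AP-1. The window of Ltb4r1 held TGTGGT on the forward strand ending at the base before the start and its reverse complement ACCACA beginning 222 bases before the start. That motif occurs at least once in 14.0% of 32536 windows of the same length. AGATAA occurs in 9.97% of the windows, CCGGAA in 12.1%, TGANTCA in 6.73%, TGACG in 17.9% and TGACGTCA in 1.56%. Of 7 members with a window, among them the unlisted Ptger3, Ltb4r1 was the gene with matches, and 6 had no match to any of the 6 motifs. The share of all windows with a match to any of these motifs was not computed. This count is thus a description and does not set Ltb4r1 apart. A match is a run of letters and does not show that a factor binds, and no binding was measured here. The GC content was 56.8% before Ltb4r1, 66.8% before Ptger4 and 55.2% in the window of Ptgdr2.

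Transcripts of 8 of the 9 listed receptors were detected, taken as at least 1 TPM (a level scaled for gene length and sequencing depth) in each library. This compares with 67.3% of all listed genes and with 39.3% of the 234 listed genes that match the symbols of G protein-coupled receptors, the members among them. The median of the members' mean levels was 77.1 TPM, beside 0.422 TPM for those receptors and 11.2 TPM for all listed genes. A mean of at least 100 TPM was reached by 2 members, Ltb4r1 and Ptger4, against 6.41% of listed G protein-coupled receptors and 10.3% of all listed genes. The members were picked by name, with earlier results of these data known, so these counts describe them and test nothing.

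**Figure D1:**
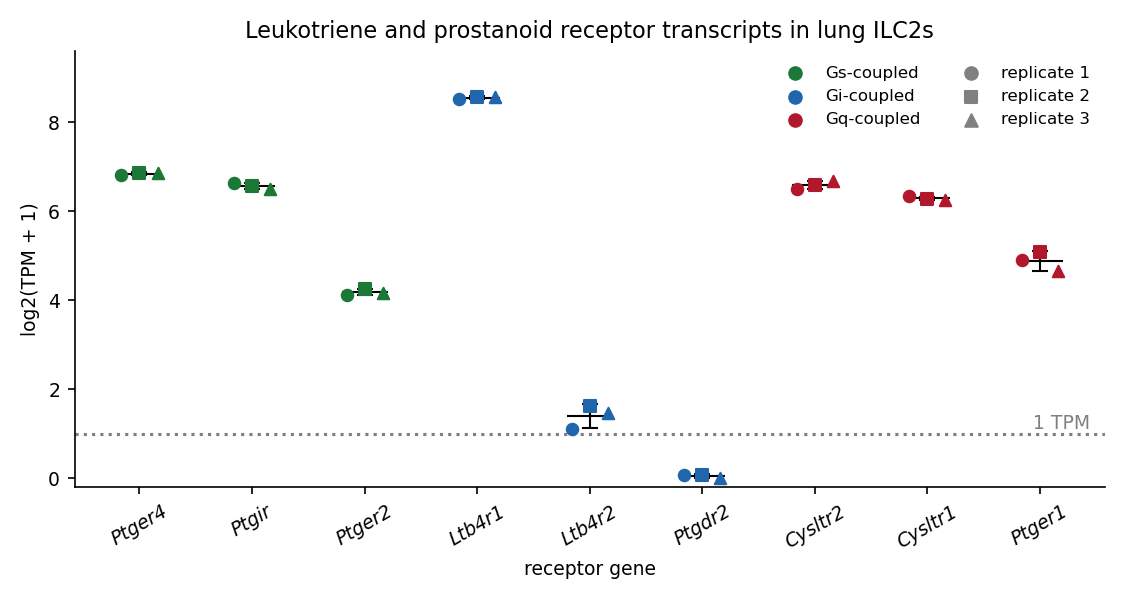
Each point is 1 library's level on the log2(TPM + 1) scale, by receptor gene and coloured by coupling, with horizontal bars for the mean and error bars for the SD over 3 libraries. Ltb4r1 lies highest in all libraries, Ltb4r2 lies near the dotted line at 1 TPM and Ptgdr2 lies at or near 0.

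Among the leukotriene B4 receptors, Ltb4r1 carried nearly all of the signal. Ltb4r1 encodes BLT1, the high-affinity receptor that draws leukocytes toward leukotriene B4. It was at 362.62, 375.78 and 378.59 TPM in replicates 1, 2 and 3, a mean of 372 ± 8.53 TPM (SD, n = 3). The 3 libraries lay within 1.04-fold of each other, and the lowest of them was far above the highest value of any other member. Ltb4r1 (Entrez gene 16995) lies on chromosome 14 from 55765962 to 55768492 of GRCm38.p6. Ltb4r2, the neighbouring gene on the same strand from 55757922 to 55764066, encodes BLT2, a low-affinity receptor. It was at 1.16, 2.11 and 1.77 TPM, from 25.55 to 44.11 estimated reads per library. Ltb4r1 exceeded it by 7.14 ± 0.24 (SD, n = 3) on the log2(TPM + 1) scale, 141-fold on that scale, in 3 of 3 libraries. Although the genes are close neighbours, their annotated exons did not overlap, and no 50-base word of Ltb4r1 occurred in a transcript of another listed gene.

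The other Gi-coupled members were near 0 or not listed. Ptgdr2 encodes CRTH2, the prostaglandin D2 receptor by which human ILC2s are often identified. It had 1, 1 and 0 estimated reads in replicates 1 to 3, or 0.06, 0.06 and 0 TPM. The 2 reads allow a mean of 0.00484 to 0.144 TPM (exact Poisson 95% interval, counting error only). On these values Ltb4r1 was the sole Gi-coupled member above 3 TPM in any library. The 3′ UTR of Ptgdr2 overlaps exons of Ccdc86 on the opposite strand over 1031 of the 2644 bases of its transcript. Ccdc86 was at 8.99 ± 0.695 TPM. The other prostaglandin D2 receptor gene, Ptgdr, which encodes the Gs-coupled DP1 and is not a member, was also low, at 0.2, 0.07 and 0.24 TPM.

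Both cysteinyl leukotriene receptors were expressed at like levels. Cysltr2, which encodes CysLT2, was at 89.38, 95.35 and 100.75 TPM, a mean of 95.2 ± 5.69 TPM. Cysltr1, which encodes CysLT1, the target of montelukast, was at 79.46, 76.32 and 75.63 TPM, a mean of 77.1 ± 2.04 TPM. Their ranges in TPM did not overlap, and Cysltr2 was the higher in 3 of 3 libraries. By estimated reads the order was the reverse, with 1762.96 to 1955.95 for Cysltr2 and 2090.95 to 2236.23 for Cysltr1. The order in TPM thus rests on the lengths by which reads were scaled, about 2047.3 and 2914.5 bases. Error in these lengths was not tested. The difference in TPM was 0.30 ± 0.12 on the log2(TPM + 1) scale, or 1.23-fold, with 0.17, 0.32 and 0.41 in replicates 1, 2 and 3. It was thus larger than its SD in these libraries, which does not cover error in length, but small beside the gap between the leukotriene B4 receptors. Cysltr2 (70086) lies on chromosome 14 from 73025672 to 73049114 and Cysltr1 (58861) on chromosome X from 106576509 to 106603679. Neither has annotated exons that overlap another gene.

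Of the prostaglandin E2 receptors, Ptger4 was the highest. Ptger4 encodes EP4, a Gs-coupled receptor of high affinity, and was at 111.37, 114.35 and 115.53 TPM, a mean of 114 ± 2.14 TPM. It was the steadiest member, with a coefficient of variation of 1.89%, close to the 1.68% that counting alone would give. Ptger2 encodes EP2, the other Gs-coupled receptor for this ligand, and was at 16.47, 18.09 and 16.8 TPM. Ptger4 exceeded Ptger2 by 2.66 ± 0.061 on the log2(TPM + 1) scale, or 6.34-fold, in 3 of 3 libraries. Of the summed TPM of the 3 listed prostaglandin E2 receptors, Ptger4 held 71.3% ± 2.39, Ptger1 18.0% ± 2.32 and Ptger2 10.7% ± 0.213 (SD, n = 3). All 3 shares take the reads listed for Ptger1 as its own, which was not tested and which the SD does not cover. Ptger4 (19219) lies on chromosome 15 from 5233399 to 5244187 and Ptger2 (19217) on chromosome 14 from 44988111 to 45003820.

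The prostacyclin receptor was nearly as high as Ptger4. Ptgir encodes IP, a Gs-coupled receptor, and was at 97.49, 93.3 and 89.11 TPM, a mean of 93.3 ± 4.19 TPM. Ptger4 was higher in 3 of 3 libraries, by 0.28 ± 0.091 on the log2(TPM + 1) scale or 1.22-fold, and the ranges did not overlap. Ptgir (19222) lies on chromosome 7 from 16906490 to 16910905. No annotated exon of Ptgir overlaps another gene, and those of Ptger2 overlap unlisted genes on the opposite strand over 4.74% of their bases. Exons of Ptger4 overlap opposite-strand genes over 16.5% of their bases, of which 82 bases lie over the listed gene Ttc33 (47.1 ± 1.45 TPM) and 1015 over an unlisted pseudogene. Of the 50-base words of Ptger4, 0.542% also occur, on either strand, in transcripts of other listed genes.

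Ptger1 was listed at an intermediate level, with a wide spread for that level. Ptger1 encodes EP1, a Gq-coupled prostaglandin E2 receptor, and was at 28.93, 33.05 and 24.11 TPM in replicates 1, 2 and 3. Replicate 2 was 1.37 times replicate 3, and the coefficient of variation of 15.6% was higher than for 98.9% of the 4805 genes with means of 10 to 50 TPM. Counting alone would give 3.72%, so this spread was larger than that of counting. Ptger1 (19216) lies on chromosome 8 from 83666644 to 83672756. The sources used here do not give whether the libraries or the counting kept strand. Without strand, reads at this locus need not all come from Ptger1, and their share in its level was not tested.

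Ordered by level, the members ran from Ltb4r1 through Ptger4, Cysltr2, Ptgir, Cysltr1, Ptger1 and Ptger2 to Ltb4r2 and Ptgdr2. The sole neighbours whose ranges overlapped were Cysltr2 and Ptgir, which differed 1.02-fold in their means, with Cysltr2 the higher in 2 of 3 libraries. Without replicate 1 their ranges did not overlap. Every other neighbour in this order was separated in all 3 libraries, by 1.20-fold between Ptger4 and Cysltr2 and by 3.27-fold between Ltb4r1 and Ptger4. With 3 libraries an exact two-sided sign-flip test cannot give a p below 0.25, so no test between genes was made, and the comparisons rest on the ranges.

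Summed by coupling, the Gi-coupled members held 46.8% ± 0.589 of the members' TPM, the Gs-coupled members 28.1% ± 0.528 and the Gq-coupled members 25.1% ± 0.168 (SD, n = 3). The Gi sum came from Ltb4r1, which alone held 46.6% ± 0.561 of the total. The Gi group was therefore the highest by sum and the lowest by median, with a median log2(TPM + 1) of 1.42 over 3 listed genes, against 6.56 for Gs and 6.29 for Gq. The Gs sum was 225.33, 225.74 and 221.44 TPM and the Gq sum 197.77, 204.72 and 200.49 TPM in replicates 1, 2 and 3. Their ranges did not overlap. The Gq sum includes Ptger1, and without it the Gq share was 22.4%, beside 29.1% for Gs and 48.5% for Gi.

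**Figure D2:**
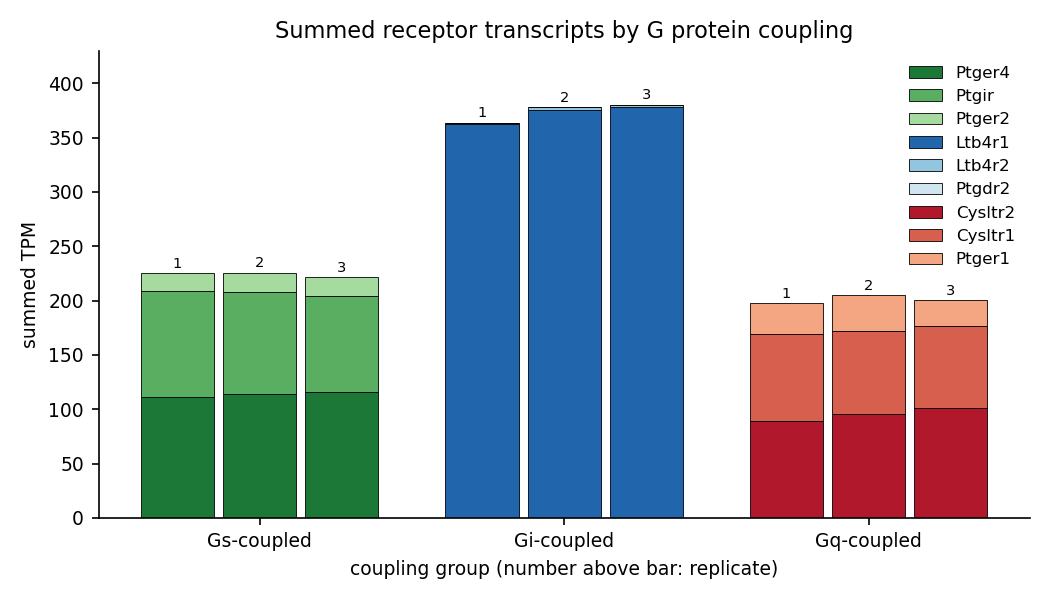
Bars give the summed TPM of the listed members of each coupling group in each of 3 libraries, divided by gene. Ltb4r1 makes up almost the whole Gi bar, while Ptger4 with Ptgir, and Cysltr2 with Cysltr1, make up most of the Gs and Gq bars.

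Among the 234 listed G protein-coupled receptors, Ltb4r1 ranked 3, after the chemokine receptor genes Cxcr6 (1317 ± 31.7 TPM) and Ccr8 (757 ± 19.8 TPM). Ptger4 ranked 13, Cysltr2 16, Ptgir 17 and Cysltr1 20. Ptger1 and Ptger2 followed at 34 and 42, and Ltb4r2 and Ptgdr2 at 82 and 172. The receptors most like a member were sought by the mean absolute difference in log2(TPM + 1) over the 3 libraries. This measure mainly reflects equal level, since all libraries belong to 1 condition. For Ltb4r1 the nearest were Adgre5, at a distance of 0.38, and Gpr171, at 0.653. For Ptger4 the chemokine receptor gene Cx3cr1 was among the nearest, at 0.0698. For Cysltr2 they were Ptgir (0.11) and Gpr132 (0.127), and for Ptgir they were Gpr132 (0.0994) and Cysltr2 (0.11).

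**Figure D3:**
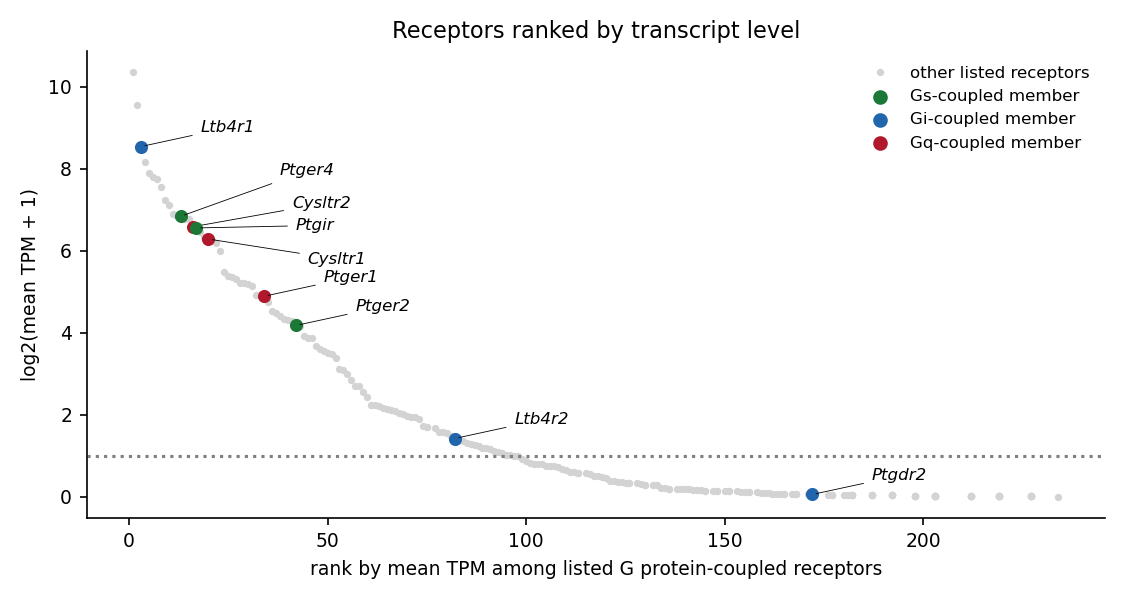
Listed G protein-coupled receptors are ordered by mean TPM, with the level on the log2(mean TPM + 1) scale and the members coloured by coupling. Ltb4r1 is at rank 3, and 4 further members lie at ranks 13 to 20.

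In a fixed list of related receptors outside the members, the genes with a level were low. That list is short and is no survey of lipid receptors. Of its 8 genes, 4 were listed and 1, Cmklr1, was detected, at 1.54, 1.64 and 1.04 TPM. Cmklr1 encodes a receptor for chemerin and resolvin E1. Tbxa2r, the thromboxane receptor gene, was at 0.6 TPM in each library, and Fpr1, a formyl peptide receptor gene, had 1 estimated read in all. The prostaglandin F receptor gene Ptgfr, Oxgr1, Gpr17 and Fpr2 were not listed and no level is given.

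The signalling genes that such receptors use were read from fixed lists, and their counts of detected genes stand beside the 67.3% of all listed genes. Several of these counts, such as those of Gi alpha genes, adenylyl cyclases and phosphodiesterases, are near that share and are given as descriptions. The alpha subunit of Gs, Gnas, was at 874 ± 19.2 TPM, and its olfactory relative Gnal at 2.38 ± 0.54 TPM. Of 5 Gi alpha genes 3 were detected, led by Gnai2 (665 ± 12.4 TPM) and Gnai3 (230.1 ± 2.55 TPM), while Gnai1 and Gnao1 were below 1 TPM in all libraries. All 4 Gq alpha genes were detected. The highest was Gna15 (120 ± 9.17 TPM), which encodes a subunit found mainly in blood cells that accepts many receptors, and Gna11 and Gnaq stood at 12.3 ± 0.835 and 11.1 ± 0.563 TPM. The alpha subunit of Gq itself was thus listed below both cysteinyl leukotriene receptor genes, in 3 of 3 libraries.

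Downstream of Gs, 5 of 8 listed adenylyl cyclases were detected. Adcy7, the cyclase typical of blood cells, reached 141 ± 1.098 TPM, ahead of Adcy3 (34.8 ± 0.676 TPM) and Adcy5 (18.6 ± 1.51 TPM). Of 14 genes for protein kinase A, EPAC and CREB factors 11 were detected, led by the regulatory subunit gene Prkar1a (519.9 ± 14.8 TPM) and the catalytic subunit gene Prkacb (182 ± 4.82 TPM). Both EPAC genes were low, Rapgef3 at 0.533 ± 0.0751 TPM and Rapgef4 at 0.26 ± 0.11 TPM. Of 16 phosphodiesterases that degrade cyclic AMP or cyclic nucleotides, 11 were detected. Pde7a (84.96 ± 0.535 TPM), Pde3b (46.4 ± 2.87 TPM), Pde4b (42.8 ± 0.969 TPM) and Pde4a (36.1 ± 1.76 TPM) were the highest.

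Downstream of Gq and Gi, 6 of 7 phospholipase C beta and inositol trisphosphate receptor genes were detected. Itpr2 (77.8 ± 3.73 TPM) and Plcb4 (58.7 ± 1.60 TPM) led, while Plcb1 was at 0.15 ± 0.0265 TPM. Of 6 beta-gamma effector genes 5 were detected, among them the Rac activator gene Prex1 (219.5 ± 8.53 TPM) and the PI3-kinase catalytic gene Pik3cg (88.8 ± 1.54 TPM). The Pik3cg adaptors differed, with Pik3r5 at 12.1 ± 0.33 TPM and Pik3r6 at 0.16 ± 0.01 TPM. Of 8 listed receptor kinase and arrestin genes 7 were detected, led by Grk2 (260.5 ± 7.49 TPM) and Arrb2 (224 ± 2.80 TPM). RGS proteins, which end Gi and Gq signals, had 8 of 9 listed genes detected, with Rgs1 (3206 ± 111 TPM) and Rgs2 (699 ± 17.5 TPM) highest.

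Counts of detected ligand-making enzymes were near or below the 67.3% of all listed genes. Of 9 listed leukotriene synthesis genes 6 were detected, with the leukotriene B4 synthase gene Lta4h (137 ± 5.56 TPM) and Alox5 (69.5 ± 0.658 TPM) highest, while Ltc4s, the synthase for cysteinyl leukotrienes, was at 0.51, 0.63 and 0 TPM. Mgst2, which encodes a microsomal enzyme that can also make leukotriene C4, was at 28.4 ± 1.52 TPM. Of 9 prostanoid synthesis genes 5 were detected. Ptges3, a prostaglandin E2 synthase gene whose product is also a co-chaperone, was highest at 115 ± 1.44 TPM, followed by the prostaglandin D2 synthase gene Hpgds at 15.3 ± 1.04 TPM and Ptges2 at 14.1 ± 0.533 TPM. The cyclooxygenase genes Ptgs1 and Ptgs2 were at 1.51 ± 0.0964 and 2.27 ± 0.49 TPM. Of 7 clearance and transport genes 4 were detected, and Hpgd, which inactivates prostaglandin E2, was at 0.203 ± 0.191 TPM.

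**Figure D4:**
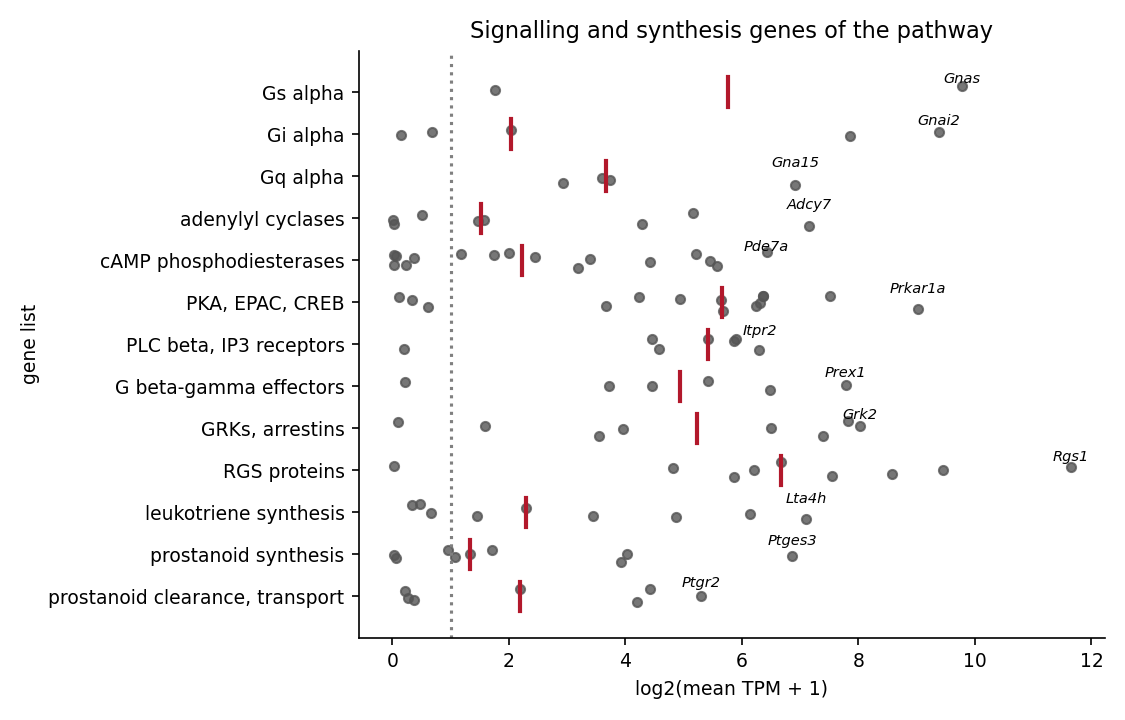
Each point is a gene's mean level over 3 libraries on the log2(mean TPM + 1) scale, by list, with the highest gene named, a red bar for the list's median and a dotted line at 1 TPM. The lists of synthesis and clearance genes hold many points below or near the line, while Gnas, Gnai2 and Rgs1 lie far to the right.

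Leukocytes other than ILC2s also carry these receptors, so their markers were read in the same libraries. All 14 ILC2 markers were detected, with a median of 571 TPM, against 29 of 79 listed markers of other cells with a median of 0.653 TPM. Over all listed genes 67.3% were detected. The marker lists were chosen with earlier results of these data known, so these counts are descriptions. Of the listed neutrophil markers 2 of 6 were detected, with summed levels of 4.06, 3.96 and 7.04 TPM in replicates 1 to 3, and of the eosinophil markers 1 of 5, with 2.71, 2.69 and 4.37 TPM. In the mast cell and basophil list, Kit was at 155 ± 2.40 TPM and Cpa3 at 5.32 ± 0.51 TPM, while Ms4a2 and Mcpt8 were at 0 in replicates 1 and 2. Of 11 listed macrophage and monocyte markers 8 were detected, led by Chil3 at 337.6, 326.62 and 461.15 TPM. Chil3 made up most of the sum of that list, which was 399.03, 390.9 and 546.2 TPM. The next were Lyz2 (39.1 ± 6.98 TPM) and Ear2 (11.7 ± 2.44 TPM), while Adgre1 was at 0.653 ± 0.221 TPM and Fcgr1 at 0.123 ± 0.0751 TPM. Replicate 3 had 1.38 times the mean sum of that list in replicates 1 and 2. The same ratio was 1.76 for the neutrophil, 1.62 for the eosinophil and 1.42 for the T cell list. It was 1.43 for the fibroblast and muscle list, whose sums were 0.43, 0.41 and 0.6 TPM. The list of natural killer cells and type 1 innate lymphoid cells had 1.26, and the dendritic cell list 1.245. The ratio was 1.101 for the erythrocyte and platelet, 1.09 for the B cell and 1.02 for the endothelial list. It was 1.01 for the mast cell and basophil and 0.938 for the epithelial list. Cd79b, Pecam1 and Kit made up most of the sums of the B cell, endothelial, and mast cell and basophil lists, respectively. For the members above 1 TPM this replicate 3 ratio ran from 0.778 for Ptger1 to 1.09 for Cysltr2. It was 1.03 for Ltb4r1, 1.02 for Ptger4 and 0.971 for Cysltr1. The part of other cells in the members' levels was not tested. In sorted bulk cells, fewer cells that carry a receptor and less RNA per cell cannot be told apart.

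The spread between libraries was near that of other genes of like level for most members. The coefficient of variation was 2.29% for Ltb4r1, 2.65% for Cysltr1, 4.49% for Ptgir and 5.98% for Cysltr2. The median was 2.98% over 545 genes with means of 200 to 800 TPM, 3.28% over 2752 genes of 50 to 200 TPM and 4.43% over 4805 genes of 10 to 50 TPM. Cysltr2 was higher than 87.3% of the genes of its range. Cysltr2 was highest in replicate 3 and lowest in replicate 1, and Ptgir the reverse.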

How the data were processed

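RNA sequencing of sorted lung ILC2s from IL-33-treated wild-type mice gave 3 libraries of 1 group, numbered as in their titles. Bowtie2, RSEM 1.3.1 and GRCm38.p6 appear in the submitters' processing notes, with no order or settings. The sources used here do not give the annotation or the strand setting. Per the file headers, the authors deposited TPM, FPKM, expected counts (estimated reads) and normalised read counts, a depth-scaled signal that was not used. TPM summed to 1000000 per library, and 78.7% of the estimated counts above 0 were not whole, as when reads are divided among genes.

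Levels are TPM, with mean and SD over 3 libraries, and differences were taken on the log2(TPM + 1) scale, where the ratio of a low gene is understated. Detected means at least 1 TPM in each library. The named genes were all members, 8 related receptors, up to 4 highest and 2 lowest genes of each fixed list, and the 2 receptors nearest in level to each of the 4 highest members. Some results that this rule gives are not reported here. Marker and pathway lists, the G protein-coupled receptor symbols and the members were chosen with earlier results of these data known. Ccdc86, Ttc33, Rapgef3, Ptgs1, Cxcr6 and Ccr8 were named after their values were seen. Gene positions and promoters are from RefSeq (GRCm38.p6), and exon overlaps and 50-base words are from GENCODE M21 on the same build. Of the listed gene IDs, 16081 matched RefSeq. The depth of 19948056, 19883728 and 19976129 estimated reads in replicates 1 to 3 makes 3 reads worth 0.231 TPM for Ltb4r1 and 0.14 TPM for Ltb4r2. The level calculation was tested on simulated data. Python 3.11.15 with pandas 2.3.3, numpy 2.4.6 and scipy 1.17.1 was used. Alternatives were FPKM, other pseudocounts and detection levels, a filter on low counts and leaving out each library.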

Additional observations from a re-analysis of the deposited data

How the results depend on the processing

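No difference between member pairs changed sign under the alternatives run, while shares, counts and ranks cannot change sign. Of the recomputed values, 72 of 83 stayed within the spread between libraries or, for counts and ranks, within 1.5-fold. Some of these could hardly move, or not at all. Leaving out 1 of 3 libraries always shifts a mean by less than the SD over all 3. The shares and pair differences under that setting thus stayed by construction. FPKM rescales each library, which keeps shares and ranks, and the filter on low counts removed no gene of a pair. The number of detected members was 7 with FPKM or with detection at 5 TPM, when Ltb4r2 falls below the level, and 8 at 0.5 TPM. The difference between Ltb4r1 and Ltb4r2 depended on the scale because Ltb4r2 is near 1 TPM. It was 6.64 with FPKM, 7.75 with a pseudocount of 0.1 and 7.44 with a pseudocount of 0.5. Ptger4 minus Ptger2 was 2.59 with FPKM and 2.73 with a pseudocount of 0.1, and Ltb4r1 minus Ptger4 was 1.69 and 1.71 on these scales. Leaving out each library gave 7.01 to 7.25 for Ltb4r1 minus Ltb4r2, 0.24 to 0.36 for Cysltr2 minus Cysltr1 and 0.24 to 0.33 for Ptger4 minus Ptgir. Without replicate 1 the number of neighbours in the order with overlapping ranges was 0, otherwise 1, since Cysltr2 and Ptgir then separate. Leaving out Ptger1, chosen after seeing the data, gave 29.1%, 48.5% and 22.4% for the Gs, Gi and Gq shares, by construction. The settings for the order and the receptor ranks were also added after seeing the data. Depth limits Ptgdr2 and Ltb4r2, with 0 to 1 and 25.55 to 44.11 estimated reads per library. Differences between genes were taken within each library, and no replicate block between groups applies to 1 group.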
